A study of Homo sapiens with 2 samples.

Results

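Small nucleolar RNA host genes are transcription units whose introns contain small nucleolar RNAs (snoRNAs). Members were taken as every non-control probe that the array files name SNHG1, SNHG3, SNHG5, SNHG6, SNHG7, SNHG8, SNHG12, SNHG15, SNHG16 or GAS5. This gave 10 of 43317 gene names and 26 of 58201 probes, each printed as 1 spot per array. RNA came from Ca9-22, an established oral squamous cell carcinoma (OSCC) line, after infection with a control lentiviral vector (1 array) or with a lentiviral vector for the long noncoding RNA DLEU1 (1 array). Both cultures grew under blasticidin for 2 weeks, so both groups carried a vector and its resistance gene. From each culture, a 1-colour Agilent array was hybridised with Cy3-labelled material made from 100 ng of total RNA, and both arrays were on the same slide. With 1 culture per vector the differences below have no replicate check, no test could be made, and vector, culture and array cannot be told apart.

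In a snoRNA host gene, the exons are spliced into a polyadenylated RNA while the excised introns are trimmed to snoRNAs, which guide chemical modification of ribosomal and other RNAs. C/D box snoRNAs (SNORD) guide methylation of the ribose, and H/ACA box snoRNAs (SNORA) guide pseudouridylation. Many host transcripts begin with a run of pyrimidines, as ribosomal protein mRNAs do, and are degraded by nonsense-mediated decay once ribosomes engage them. GAS5 was first described in growth-arrested cells, and several SNHG transcripts have been studied as cancer-associated long noncoding RNAs.

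DLEU1 itself checked the labels. It had 3 probes, all detected on both arrays, of which only the brightest is given. At that probe control vector cells had a level of 3.17 and DLEU1 vector cells one of 5.91, which is 2.74 higher or 6.67-fold. Here a level is the log2 processed signal minus the 75th percentile of that array, and a difference is the DLEU1 vector minus the control vector on the log2 scale. The epithelial identity of the cells was visible on both arrays, where all 6 squamous markers (KRT5, KRT14, KRT6A, KRT17, TP63 and CDH1) were detected. Of 5 fibroblast markers, COL1A1 was detected on both arrays, with a level of 0.47 (control vector) and 4.47 (DLEU1 vector), LUM with the DLEU1 vector only, and COL1A2, COL3A1 and DCN on neither. Of the leukocyte markers PTPRC was detected and CD3E was not, and of the endothelial markers CDH5 and VWF were detected and PECAM1 was not, with VWF at -2.33 and 1.37. The part of other cells in the host gene values was not tested.

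Of the 26 host gene probes, 24 were well above background on both arrays. All but 3 of these 24 had a lower level with the DLEU1 vector, that is, 21 lay below 0, a count that ran from 19 with loess to 24 with the spike-in probes set equal. Setting the spike-in probes equal moved every difference by -0.46, so values between 0 and that size turned negative there. Before that step 0 was not an even split either, since 53.6% of all detected probes had a lower difference than the -0.01 of SNHG8. The median difference over the 24 probes was -0.70, while the median over all 26279 probes detected on both arrays was -0.07. SNHG5 gave 6 of the 24 probes, so genes with many probes weigh more in the -0.70. With 1 value per gene, the median of the 10 gene medians was -0.51. At least 2-fold lower were 6 host gene probes (25%), in 3 genes, against 9.78% of all detected probes. None was at least 2-fold higher, against 8.98% of all detected probes. Host gene probes are bright, so the same shares were taken over the 13226 probes that reached the signal of the dimmest detected member on both arrays. There, 9.99% were at least 2-fold lower and 6.11% at least 2-fold higher, with a median difference of -0.15. The bright end of the arrays leaned downward as a whole, with medians of -0.28 for mean levels from 5 to 6 and -0.34 from 6 to 7.

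**Figure D1:**
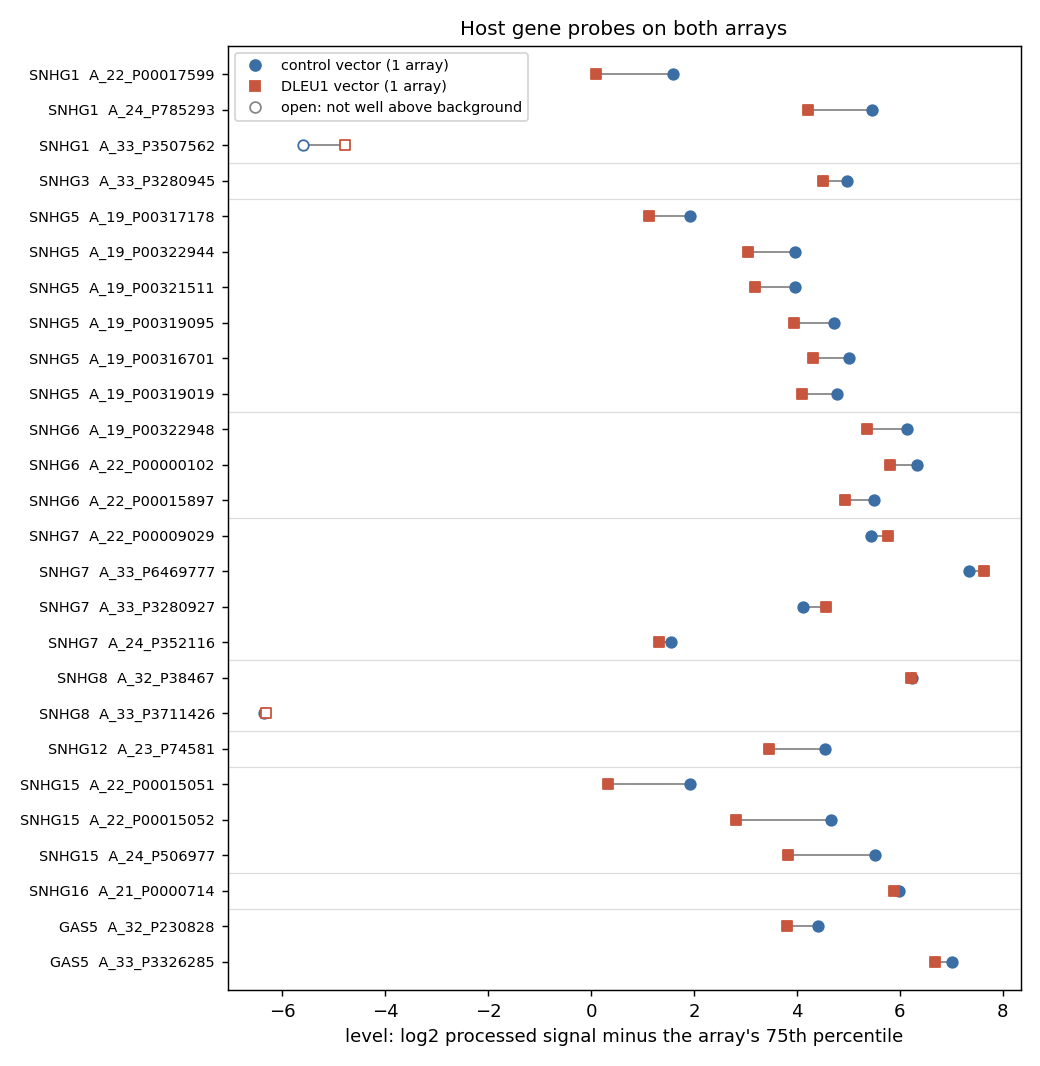
Level of each of the 26 host gene probes on the array of the control vector (circles) and of the DLEU1 vector (squares), as log2 processed signal minus the 75th percentile of the array; open symbols were not well above background. Squares lie left of circles for 21 of the 24 detected probes, and only within a row can levels be compared, since probes differ in how they hybridise.

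The spread of repeated measurement was small beside most of these differences. Over 282 detected probes printed in 10 copies, the log2 differences of single spots of a probe had a pooled SD of 0.08. Probes of the same host gene differed more than that: over the 6 genes with several detected probes the pooled SD was 0.18. The SD of 0.08 describes technical spread within a pair of arrays. The SD of 0.18 can also hold differences between transcripts of a gene, and it was raised by SNHG7, whose probes had an SD of 0.31. Neither figure says anything about the spread between cultures.

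SNHG15, which holds SNORA9 and is known as an RNA of rapid turnover, was furthest from 0. Its probes lie on the minus strand of chromosome 7 (hg19, the build of the array design) at chr7:45026163-45026222, chr7:45023449-45023508 and chr7:45022851-45022910, starting at bases 37, 420 and 519 of NR_003697. They are shown from 5′ to 3′ because they share no sequence and were all more than 2-fold lower.
A_22_P00015051: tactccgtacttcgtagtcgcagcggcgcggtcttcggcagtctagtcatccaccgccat
A_22_P00015052: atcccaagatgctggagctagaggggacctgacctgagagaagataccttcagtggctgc
A_24_P506977: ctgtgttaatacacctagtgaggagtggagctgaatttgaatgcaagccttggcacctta

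From the 5′ probe to the 3′ probe, the processed signal of SNHG15 was 918 (control vector) and 295 (DLEU1 vector), 6152 and 1650, and 11016 and 3342. After scaling, these were differences of -1.60, -1.86 and -1.68, or 3.03-fold, 3.63-fold and 3.21-fold lower. All 3 were past 2-fold, and their range of 0.26 was small beside the differences themselves. Of all detected probes, 3.20%, 2.26% and 2.83% had a lower difference than these.

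SNHG1 had the next lowest values. It carries 8 C/D box snoRNAs in its introns and gives a well-studied host transcript without a conserved reading frame. Its 3 probes lie on the minus strand at chr11:62622606-62622665, chr11:62619573-62619632 and chr11:62619488-62619547 (hg19). They are shown because the first 2 followed each other while the third, designed from the expressed sequence tag BM548627 just downstream, was not above background.
A_22_P00017599: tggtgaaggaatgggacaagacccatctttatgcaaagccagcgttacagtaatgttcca
A_24_P785293: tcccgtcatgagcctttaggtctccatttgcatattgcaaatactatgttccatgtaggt
A_33_P3507562: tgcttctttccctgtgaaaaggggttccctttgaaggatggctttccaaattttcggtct

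The probe near the 5′ end of SNHG1 read 734 (control vector) and 251 (DLEU1 vector), a difference of -1.51. The probe near the 3′ end read 10694 and 4364, a difference of -1.26. Both were past 2-fold, at 2.85-fold and 2.39-fold lower. The tag probe read 5.04 and 8.58 and gives no measured difference. A further probe that the files name only by the transcript ENST00000539303 falls on the same strand between those of SNHG1, at chr11:62621047-62621316, a stretch of 270 bases for a 60-base probe. It read 830 and 280, a difference of -1.53; it is no member by name and was looked up after the values of SNHG1 were seen.

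SNHG12, host of SNORA16A, SNORA44, SNORA61 and SNORD99, had 1 probe. Its 60 bases match a stretch of 912 bases on the minus strand, chr1:28905179-28906090 (hg19), so that it spans a splice junction and reports spliced RNA, which is why it is shown.
A_23_P74581: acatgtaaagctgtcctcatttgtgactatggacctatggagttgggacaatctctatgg

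The SNHG12 probe read 5655 (control vector) and 2598 (DLEU1 vector). The difference of -1.08, or 2.12-fold lower, was just past 2-fold, and it fell short of 2-fold under 3 other scalings, at -0.88 with loess.

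SNHG5, which holds SNORD50A and SNORD50B, came next, with all 6 of its probes lower and none past 2-fold. On the minus strand of chromosome 6, the probe at chr6:86387688-86387747 read 922 (control vector) and 512 (DLEU1 vector), a difference of -0.81. The pair A_19_P00322944 and A_19_P00321511 share 59 bases and read 3784 and 1965, and 3776 and 2159, which are differences of -0.91 and -0.77. A_19_P00319095 covers 292 bases of the genome and so crosses an intron; it read 6388 and 3621, a difference of -0.78. A_19_P00316701 and A_19_P00319019 share 52 bases and read 7849 and 4705, and 6684 and 4014, both a difference of -0.70. The SD over the 6 probes was 0.08, equal to that between spots of a single probe. Overlapping probes measure the same stretch of RNA and are not independent of each other.

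GAS5, which holds 11 snoRNAs, the most among the members, was lower at both of its probes by less than 2-fold. The probe at base 562 of NR_002578 lies at chr1:173833049-173833108 on the minus strand (hg19). It is shown because it holds the letters of a polyadenylation signal next to its end. Capitals mark the hexamers AATAAA and ATTAAA, searched on the strand printed.
A_33_P3326285: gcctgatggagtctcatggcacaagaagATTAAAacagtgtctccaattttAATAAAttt

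That probe read 31174 (control vector) and 24079 (DLEU1 vector), a difference of -0.34. The other GAS5 probe, at base 133 of the transcript, read 5110 and 3294, a difference of -0.60. The files place it on 18 bases only, which cannot hold 60, so its genome position is not given here. SNHG3, host of SNORA73A and SNORA73B, had 1 probe, at chr1:28836041-28836100 on the plus strand, which read 7553 and 5370, a difference of -0.45.

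SNHG16 and SNHG8 lay within about the SD between spots of 0. SNHG16, which holds SNORD1A, SNORD1B and SNORD1C, read 15220 (control vector) and 13940 (DLEU1 vector) at chr17:74561359-74561418 on the plus strand, a difference of -0.09. SNHG8, host of SNORA24, read 18201 and 17580 at chr4:119200825-119200884, a difference of -0.01. The sign of both changed with the scaling, to 0.18 and 0.26 with loess. A second SNHG8 probe, from the tag BM926530, read 2.95 on both arrays and was not above background.

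SNHG7, host of SNORA17A and SNORA17B, was the only member with probes above 0, 3 in number, none of which was above 0 with spike-in scaling. Its 4 probes lie on the minus strand of chromosome 9 (hg19) and are shown because they separate its transcripts. In the order printed, they are at chr9:139620797-139620856, chr9:139619188-139619247, chr9:139619047-139619106 and chr9:139619969-139620028. By the files' own lists, the first matches NR_024543, NR_024542 and NR_003672, the next 2 match NR_024542 and NR_024543, and the last matches NR_003672 alone among the RefSeq transcripts.
A_22_P00009029: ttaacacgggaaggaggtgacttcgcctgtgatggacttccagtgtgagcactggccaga
A_33_P6469777: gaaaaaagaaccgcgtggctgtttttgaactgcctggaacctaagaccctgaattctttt
A_33_P3280927: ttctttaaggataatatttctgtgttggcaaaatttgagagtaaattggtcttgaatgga
A_24_P352116: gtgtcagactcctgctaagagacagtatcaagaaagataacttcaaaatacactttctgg

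The probe shared by the 3 SNHG7 transcripts read 10496 (control vector) and 12931 (DLEU1 vector), a difference of 0.34. The next 2 read 39110 and 47108, and 4206 and 5616, differences of 0.31 and 0.45. None of these was past 2-fold, and their direction turned when the spike-in probes were set equal, to -0.12, -0.16 and -0.01. The probe of NR_003672 alone read 714 and 590, a difference of -0.24 that kept its sign under the 9 alternatives that can change the value of a single probe. The range over the 4 probes, 0.69, was the widest among the 10 genes, which otherwise reached at most 0.26.

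**Figure D2:**
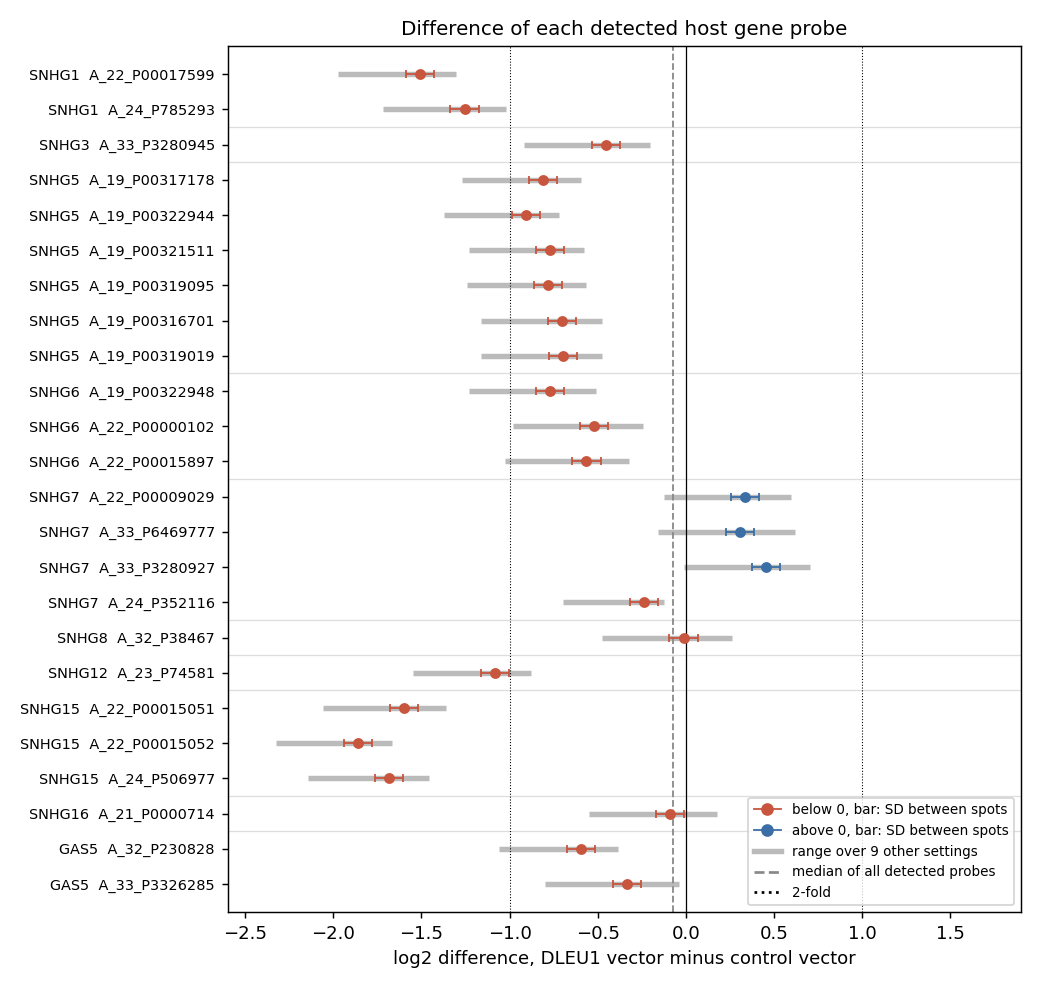
Log2 difference (DLEU1 vector minus control vector) of each of the 24 host gene probes detected on both arrays; bars are the SD of 0.08 between spots of a probe, grey lines the range over 9 other settings, dotted lines 2-fold and the dashed line the median of -0.07 over all detected probes. The 3 SNHG15 probes and both SNHG1 probes stay past 2-fold over the whole grey line, whereas SNHG7 lies to the right of 0 at 3 of 4 probes, except with spike-in scaling, the left end of their grey lines.

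SNHG6, host of SNORD87 on chromosome 8, was lower at all 3 of its probes without reaching 2-fold. The probe at base 158 of NR_002599 read 17026 (control vector) and 9735 (DLEU1 vector), a difference of -0.77. Those at bases 292 and 347 read 19374 and 13173, and 10874 and 7168, differences of -0.52 and -0.56. Within SNHG6 the range of 0.25 was like those within SNHG1, GAS5 and SNHG15 (0.25, 0.26 and 0.26).

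Ordered by the median of their detected probes, the genes ran from SNHG15 (-1.68) through SNHG1 (-1.38), SNHG12 (-1.08), SNHG5 (-0.78), SNHG6 (-0.56), GAS5 (-0.47), SNHG3 (-0.45), SNHG16 (-0.09) and SNHG8 (-0.01) to SNHG7 (0.32). Neighbours from SNHG6 to SNHG3, and SNHG16 with SNHG8, lay closer to each other than the SD of 0.18 between probes of a gene. The probes of SNHG15 did not overlap in difference with those of any other member, and neither did those of SNHG1. The ranges of SNHG5 and SNHG6 overlapped.

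**Figure D3:**
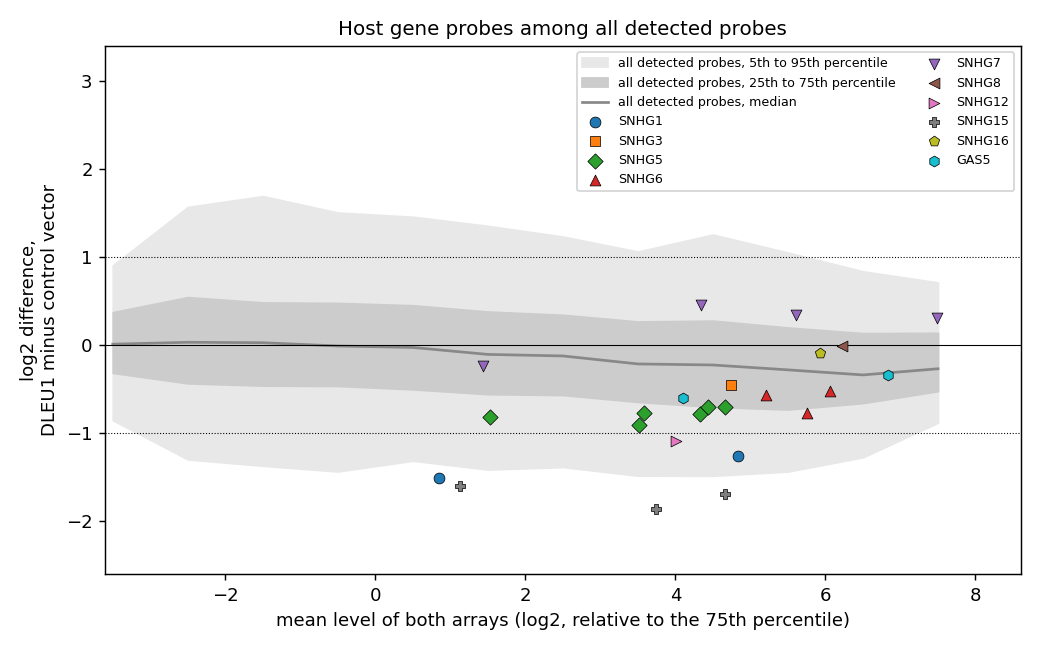
Log2 difference of the 24 detected host gene probes (coloured by gene) against their mean level on both arrays, over bands holding the middle of all detected probes at each level (25th to 75th and 5th to 95th percentile). SNHG15 lies below the outer band at all 3 probes and SNHG1 at 1 of 2, whereas SNHG8, SNHG16 and 3 of the 4 SNHG7 probes lie above the median line.

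The RNAs that sit inside the host introns were read next, through probes that the files name for the snoRNAs. The RefSeq gene table (GRCh38.p14, used for names and neighbourhood only) places 35 snoRNAs inside the members, and 25 of them had a probe. Of these, 23 were detected on both arrays, with a median difference of -0.33, 16 below 0 and 7 above. At least 2-fold lower were 4 of the 23, and none was 2-fold higher. Over all 197 detected probes with a snoRNA name the median was -0.17, with 10.2% at least 2-fold lower and 8.12% at least 2-fold higher. The labelling kit primes from poly(A) tails, which mature snoRNAs lack; whether these probes read the snoRNA, an unspliced host RNA or another transcript was not tested.

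Host exons and the snoRNA probes of the same gene often did not share their difference. In SNHG1, whose exon probes were at -1.51 and -1.26, the 8 snoRNA probes had a median of 0.08 and ran from -0.63 (SNORD29) to 0.48 (SNORD26). SNORD26, the brightest of the 8 on its own probe, read 2805 (control vector) and 3824 (DLEU1 vector). The other 7 read between 62.96 and 213. No snoRNA probe of SNHG1 was past 2-fold, and none overlapped with the exon probes.

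In SNHG12, the snoRNA probes pointed both ways. SNORA61 read 1918 (control vector) and 906 (DLEU1 vector), a difference of -1.05 beside the -1.08 of the exon probe. SNORA16A, in the same host gene, read 6075 and 11576, a difference of 0.97. SNORD99 was at -0.65, and SNORA44, with signals of 23.2 and 20.1, at -0.17. In SNHG15, SNORA9 read 487 and 378, a difference of -0.33 beside exon probes from -1.86 to -1.60.

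In SNHG16 all 3 snoRNA probes, and in GAS5 4 of 5, were lower than the exon probes. In SNHG16, with its exon probe at -0.09, SNORD1C, SNORD1B and SNORD1A were at -0.34, -0.79 and -1.18, all from dim signals of 101 or less. In GAS5, with exon probes at -0.34 and -0.60, all 5 snoRNA probes detected on both arrays were below 0. SNORD74 read 73.2 and 19.2, a difference of -1.89, and SNORD44 read 72.7 and 33.5, a difference of -1.08. SNORD80 and SNORD47 were at -0.93 and -0.83, and SNORD76, at 580 and 552, was at -0.03. SNORD77 was detected with the control vector only and SNORD75 on neither array. SNORD87 of SNHG6 (0.04) and SNORA24 of SNHG8 (-0.05) differed by less than the SD between spots.

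**Figure D4:**
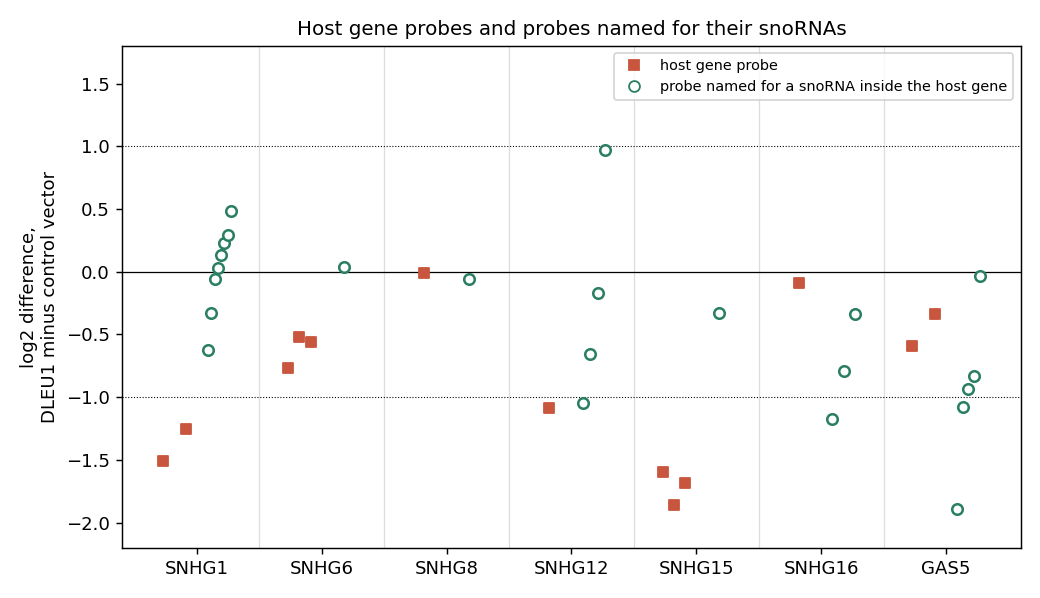
Log2 difference (DLEU1 vector minus control vector) of the exon probes of each host gene (squares) and of the probes named for the snoRNAs in its introns (open circles), for the 7 hosts with a detected snoRNA probe; dotted lines mark 2-fold. In SNHG1 every circle lies above both squares, whereas in GAS5 and SNHG16 most circles lie below the squares.

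Neighbouring genes were read by their own probes. SLC3A2, which encodes the heavy chain of amino acid transporters and starts within 1000 bases of SNHG1 on the other strand, had levels of 5.73 and 6.06, a difference of 0.33, whereas SNHG1 was lower. ZBTB37, head to head with GAS5, was dim, at -2.65 and -3.03, a difference of -0.37 that lies between those of the GAS5 probes. That is an ordinary value for dim probes: at mean levels from -3 to -2, the 25th to 75th percentile ran from -0.43 to 0.55. RCC1, the nucleotide exchange factor of RAN, overlaps SNHG3 on the same strand; it was at 2.88 and 0.86, a difference of -2.02 against the -0.45 of SNHG3. Each of these genes had 1 probe.

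Promoter windows of the members were matched in RefSeq (GRCh38.p14) for 8 of the 10 genes; SNHG6 and SNHG15 had no entry. A window covers 250 bases before and 50 after the annotated start. A run of at least 5 C or T that begins with C within 5 bases of the start, as in transcripts with a 5′ pyrimidine tract, was found in 5 of the 8 and in 21.1% of all 35116 windows. The letters CACGTG, the same on both strands and the core of a site for MYC and related factors, were in 1 of the 8 (SNHG7) and in 7.26% of all windows. The annotated starts follow with the run in capitals, from 20 bases before the start and for 30 bases from it. They are given because members with the run lay on both sides of the order above.
SNHG12, chr1:28581844-28581893, minus strand: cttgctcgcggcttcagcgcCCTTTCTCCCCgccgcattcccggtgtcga
SNHG5, chr6:85678704-85678753, minus strand: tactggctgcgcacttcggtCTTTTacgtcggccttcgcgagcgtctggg
SNHG16, chr17:76557744-76557793, plus strand: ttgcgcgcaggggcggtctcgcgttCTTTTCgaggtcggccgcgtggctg
SNHG8, chr4:118278742-118278791, plus strand: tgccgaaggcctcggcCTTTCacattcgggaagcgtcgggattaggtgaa
SNHG7, chr9:136728155-136728204, minus strand: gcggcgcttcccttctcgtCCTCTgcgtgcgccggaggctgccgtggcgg
SNHG1, chr11:62855856-62855905, minus strand: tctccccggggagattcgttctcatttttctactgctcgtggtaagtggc

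The run was longest in SNHG12, with 11 bases from the annotated start, where the probe was at -1.08. It was 5 or 6 bases long in SNHG5 (median -0.78), SNHG16 (-0.09), SNHG8 (-0.01) and SNHG7 (0.32). No run met the rule in SNHG1, SNHG3 or GAS5, which says only that these letters were not at the annotated start. The letters describe the windows and were not tied to the differences by any test.

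Genes of the wider snoRNA pathway were described by the brightest detected probe of each gene, for which 9.78% of all 20246 detected genes were at least 2-fold lower and 9.18% at least 2-fold higher, with a median of -0.07. This background was not matched to the lists by brightness. Among all detected probes the median was -0.28 at mean levels from 5 to 6 and -0.34 from 6 to 7. The host gene median of -0.70 is over probes, with several probes for some genes, and is not a like measure. The median of the 10 host gene medians, -0.51, is closer to one, though it is not by brightest probe. Proteins that build and hold snoRNA particles were lower as a list. All 20 were detected and below 0, or 19 of 20 with loess, with a median of -0.88, and 6 were at least 2-fold lower. NOP56, a core protein of C/D box particles, was the lowest at 6.21 and 4.55, a difference of -1.66. FBL, the methyltransferase of those particles, was at -1.23, and DKC1, the pseudouridine synthase of H/ACA box particles, at -1.38. ZNHIT3, an assembly factor, was the highest at -0.01.

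Other noncoding host genes were not low as a group by their brightest probes. Of 14, 12 were detected, with 7 below 0 and 5 above and a median of -0.08, which became -0.32 when the probes of a gene were averaged and 0.065 with loess. SNHG17 was the only one past 2-fold at its brightest probe, with levels of 4.42 and 3.27 and a difference of -1.15. Its other probes were at -1.41 and -0.32. EPB41L4A-AS1, host of SNORA13, was the highest by brightest probe, at 4.35 and 5.31, a difference of 0.96. SNHG18 was at 0.47 by its brightest probe and at 1.28, past 2-fold, by its other probe. ZFAS1, which hosts SNORD12 genes, was at -0.26. SNHG11 had probes from -1.20 to 0.59, so a single value does not describe it.

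Protein-coding genes with a snoRNA inside their span on the same strand lay between these lists. Whether each snoRNA lies in an intron was not checked. Of 95 such genes, 91 were detected, with a median of -0.52 and with 77 below 0. At least 2-fold lower were 20 of the 91 and at least 2-fold higher 3, against 9.78% and 9.18% of all detected genes. ODC1, the first enzyme of polyamine synthesis, was the lowest at -2.81, and COBLL1 the highest at 1.33. NOP56 and DKC1 are in this list as well as in that of snoRNA particle proteins, since both genes hold snoRNAs.

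Factors of nonsense-mediated decay, the pathway that degrades many spliced host transcripts, had a median of -0.58 over 19 detected genes. At least 2-fold lower were 2 of the 19, against 9.78% of all detected genes. At least 2-fold higher was 1, against 9.18%. MAGOHB, a subunit of the exon junction complex, was the lowest at 5.32 and 3.64, a difference of -1.68. XRN1, the exonuclease that degrades decapped RNA, was the highest at 1.11 and 2.37, a difference of 1.26. UPF1, the central helicase of the pathway, was at 0.08.

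**Figure D5:**
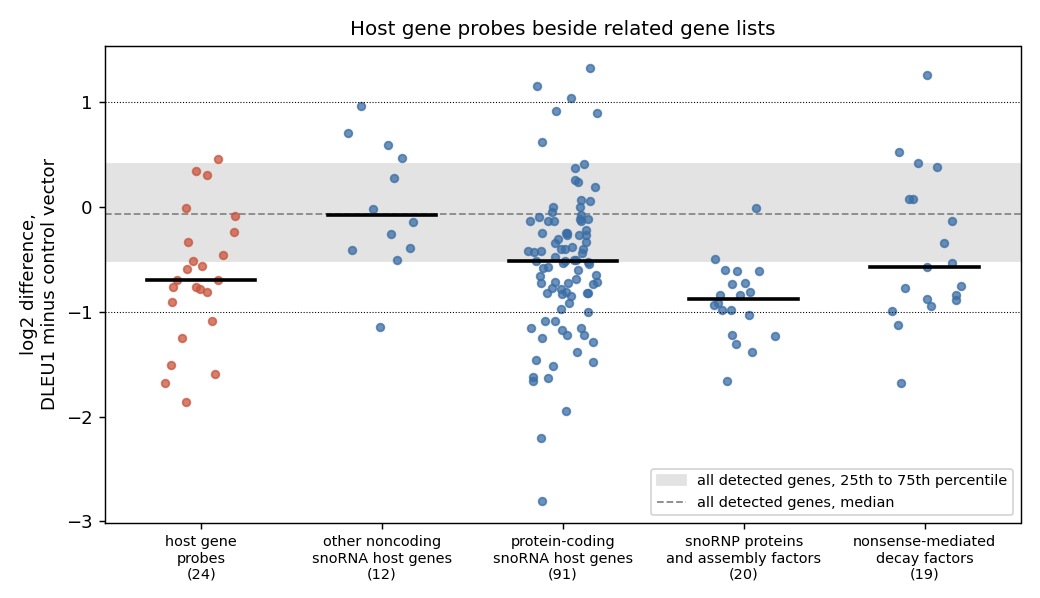
Log2 difference of the 24 detected host gene probes (left) and of the detected genes of 4 related lists by their brightest probe; black bars are medians, the grey band is the 25th to 75th percentile of all 20246 detected genes and dotted lines mark 2-fold. All 20 snoRNA particle proteins lie below 0 at this scaling (19 of 20 with loess), whereas the 12 other noncoding host genes scatter around it. The left column holds several probes for some genes, so its median is not like for like with the lists. The median of the 10 host gene medians was -0.51.

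The arrays differed widely outside these genes, and the host gene values stand beside that difference. The proliferation and differentiation genes were chosen as genes known from earlier results to move in these arrays. Their common direction therefore followed from the choice and is context only. All 12 proliferation genes were lower with the DLEU1 vector, from -3.09 (MKI67) to -1.95 (PCNA). All 8 keratinocyte differentiation genes detected on both arrays were higher, from 0.53 (KRT10) to 9.88 (SPRR3), and the 6 squamous markers were higher by 0.96 to 3.09. The part of cell growth or differentiation state in the host gene differences was not tested.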

How the data were processed

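Total RNA of both cultures was labelled and hybridised by the authors, and the deposited files hold spot intensities from Agilent Feature Extraction 10.7.3.1 (version 10.7 per the labels), including the background-subtracted processed signal. Here, log2 processed signals were averaged over the spots of a probe after removal of 84 and 103 outlier spots (control and DLEU1 vector; none from a host gene), and the 75th percentile of each array (7.92 and 7.88) was subtracted. A probe counted as detected when most of its spots were well above background, and a difference as called at 2-fold. No spot was saturated. The number of arrays, 1 per group, limits the precision.

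Named were DLEU1, every host gene probe, the neighbours, and the highest and lowest gene of each list; others were named after their values were seen. The members and lists were chosen with earlier results of these data known. snoRNA strands, which the RefSeq table does not hold, were taken from the array coordinates of 287 snoRNA names, so protein-coding hosts of other snoRNAs are not in the list. The steps were tested on simulated data. Other scalings, background correction (normexp, limma 3.58.1, R 4.3.3), detection rules and thresholds were tried, in Python 3.11.15. One leukocyte marker is not reported here.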

Additional observations from a re-analysis of the deposited data

How the results depend on the processing

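Among the 216 single-probe differences recomputed under the 9 alternatives that can change them (the other 4 only select probes), 83 moved by less than the SD of 0.08 between spots, 133 moved further, and none of the called ones turned its sign. The SNHG15 and SNHG1 calls held under all 9. The SNHG12 call was lost with the 75th percentile of detected probes, quantile normalization and loess. The scalings shifted the median of all probes by -0.11 (median), 0.11 (75th percentile of detected probes) and -0.46 (8 spike-in probes set equal), and leaving out the filter on dim probes by 0.11. The host gene median minus the median of all probes was -0.63 in the values reported, which a constant shift cannot change, and -0.44 with quantile normalization, -0.48 with loess and -0.57 with the nearest spots.

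The host gene median came to -0.81 under median scaling, to -0.59 with the 75th percentile of detected probes, -0.48 with quantile normalization, -0.48 with loess, -1.16 with spike-in scaling and -0.55 after subtracting the median of the 100 nearest spots. In the same order, other noncoding hosts were at -0.19, 0.031, 0.041, 0.065, -0.54 and 0.0385, so their sign depended on the scaling, and at -0.32 with the probes of a gene averaged. Protein-coding hosts were at -0.63, -0.41, -0.34, -0.29 and -0.98 under the first 5, and snoRNA particle proteins at -0.995, -0.77, -0.71, -0.69, -1.34 and -0.75. Decay factors were at -0.69 (median), -0.46 (75th percentile of detected probes), -0.48 (loess), -1.04 (spike-in) and -0.48 (nearest spots). Host gene probes at least 2-fold lower numbered 15 with spike-in scaling, where the median of all probes was itself -0.53. In the values reported, 14 were at least 1.5-fold lower and 3 at least 3-fold lower. The share of all detected probes was not taken at these settings, so these counts have no background to be read against.

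A damaged strip on the array of the DLEU1 vector (columns 36 to 40, rows 1 to 110, chosen after seeing the data), where 43.7% of the probes detected with the control vector, whether or not detected with the DLEU1 vector, were 2-fold lower against 12.2% elsewhere, held no host gene probe. No paired analysis was possible because each group had 1 array. The alternatives were not run on the snoRNA probes, many of them dim.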

Other observations

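Probes of genes on the opposite strand were looked up after the host gene values were seen, where they fall on the stretch covered by host gene probes or within 300 bases of it. TRNAU1AP, a protein of selenocysteine tRNA, faces the end of SNHG12 and read 364 (control vector) and 394 (DLEU1 vector), a difference of 0.15 beside the -1.08 of SNHG12. GAS5-AS1, the antisense RNA of GAS5, read 50.2 and 88.2, a difference of 0.85, while both GAS5 probes were lower. MCMDC2, opposite SNHG6, read 26.9 and 78.95, a difference of 1.59, while the SNHG6 probes were lower. All 3 antisense probes were above 0, each from 1 spot and 1 array per vector, and the GAS5-AS1 and MCMDC2 signals were dim.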
